A study of Mus musculus with 12 samples.

Results

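The genes of brown fat and thermogenesis were followed in RNA of mouse sciatic nerve. They are 10 of the 43432 genes in the count table, *Ucp1*, *Cidea*, *Ppargc1a*, *Elovl3*, *Dio2*, *Kcnk3*, *Cox8b*, *Cox7a1*, *Prdm16* and *Adrb3*, found by symbol, and the question was whether RNA of brown fat is present on the nerves and whether it differs between the groups. Each of the 12 libraries held polyA-selected RNA of a sciatic nerve from 1 mouse aged 1 month, on the 129/SvPas background. The groups were 4 WT control mice (*Mtmr2* wt/wt), 4 *Mtmr2* KO mice (*Mtmr2* -/-) with no treatment in the labels, called vehicle treated in the study, and 4 *Mtmr2* KO mice given niacin. *Mtmr2* encodes a phospholipid phosphatase, and its loss is a model of a demyelinating neuropathy of the Charcot-Marie-Tooth group. Niacin is a B vitamin. The treated mice, also *Mtmr2* -/-, were injected intraperitoneally with 120 mg/kg niacin between days 10 and 21, after which a slow-release form was given by gavage until day 30. The labels give no sex.

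Brown adipocytes burn fatty acids to make heat. Noradrenaline binds the β3-adrenergic receptor (*Adrb3*), cyclic AMP rises, and protein kinase A both frees fatty acids from lipid droplets and induces *Ucp1*, *Ppargc1a* and *Dio2*. UCP1 lets protons leak across the inner mitochondrial membrane, so that respiration yields heat in place of ATP. The sheath around the sciatic nerve holds adipocytes, and fat and muscle lie next to the nerve.

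Between 20763951 and 33191106 counts were obtained per library. Levels are CPM, the counts brought to a common library total with TMM factors, and a level of 3 counts, the limit that a count of 0 allows, lay between 0.0960 and 0.147 CPM. This limit covers counting error only. Myelinating Schwann cell genes were abundant in all libraries, their 6 markers summing to between 60359 and 115035 CPM. Some libraries stood apart. The library labelled *Mtmr2* KO replicate 4503 had *Mtmr2* at 143 CPM, inside the WT control range of 128 to 161 CPM, while the other 7 libraries labelled *Mtmr2* -/- had 66.7 to 84.6 CPM. In *Mtmr2* KO library 4502, genes with transcripts under 1000 bases exceeded those over 5000 bases by 0.99 in the median log2 deviation from the WT control mean, against -0.13 to 0.29 in WT control, -0.085 to 0.37 in the other *Mtmr2* KO libraries and 0.27 to 0.69 under niacin. Niacin-treated libraries 4506 and 4507 carried skeletal muscle RNA, with 12 muscle markers summing to 3510 and 3559 CPM against 30.2 to 119 CPM in the other 10 libraries. *Xist*, an RNA that female cells make from the X chromosome they silence, was at 544 CPM in WT control 4498, 685 CPM in *Mtmr2* KO 4502 and 584 CPM in niacin-treated 4506, and at 2.12 to 5.98 CPM in the other 9 libraries. Because the tissue was sequenced in bulk, fewer cells of a type and less RNA per cell cannot be told apart.

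Promoter sequence was searched for the core of the cyclic AMP response element in the 250 bases upstream of the start. RefSeq promoters of GRCm38.p6 were matched for 6 of the 10 genes, and 4 are printed 5′ to 3′ with the motifs in capitals. *Ucp1*, *Ppargc1a* and *Dio2*, the genes induced through cyclic AMP, each hold the core of its response element, and *Cox8b*, *Cox7a1* and *Prdm16* do not. The 4 were chosen with this result known, so the contrast between them is no test of control by cyclic AMP. Short strings were searched on both strands. TGACG is the core of the cyclic AMP response element. The string AGGTCA is bound by nuclear receptors as one unit of a repeat. TATAAA stands for the TATA box. The E-box CAGCTG is frequent in promoters of muscle genes. CCAAT stands for the box of that name. *Ucp1* at chr8:83290098-83290347 on the + strand had TGACG 147 bases and AGGTCA 14 bases before the start. *Ppargc1a* at chr5:51567726-51567975 on the - strand had TGACG on the opposite strand, read here as CGTCA, 49 bases before it. *Dio2* at chr12:90739039-90739288 on the - strand had TGACG on both strands, 95 and 92 bases before the start, overlapping in the palindrome TGACGTCA, and TATAAA at 30 bases. *Cox8b* at chr7:140900447-140900696 on the - strand had CAGCTG 19 bases before the start.
Ucp1: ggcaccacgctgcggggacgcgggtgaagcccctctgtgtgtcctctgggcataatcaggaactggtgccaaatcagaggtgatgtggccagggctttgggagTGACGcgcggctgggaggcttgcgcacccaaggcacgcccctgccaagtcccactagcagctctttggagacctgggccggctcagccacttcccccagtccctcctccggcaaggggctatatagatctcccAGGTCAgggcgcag
Ppargc1a: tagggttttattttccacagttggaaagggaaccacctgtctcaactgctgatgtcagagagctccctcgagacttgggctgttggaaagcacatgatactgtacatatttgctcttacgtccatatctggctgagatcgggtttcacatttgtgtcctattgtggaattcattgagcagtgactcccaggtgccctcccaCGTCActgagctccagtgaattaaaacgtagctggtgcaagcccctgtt
Dio2: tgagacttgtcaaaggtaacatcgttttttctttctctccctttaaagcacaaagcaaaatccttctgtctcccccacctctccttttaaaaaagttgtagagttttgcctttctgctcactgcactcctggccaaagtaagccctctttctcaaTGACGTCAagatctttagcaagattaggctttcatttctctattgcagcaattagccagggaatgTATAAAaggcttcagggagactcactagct
Cox8b: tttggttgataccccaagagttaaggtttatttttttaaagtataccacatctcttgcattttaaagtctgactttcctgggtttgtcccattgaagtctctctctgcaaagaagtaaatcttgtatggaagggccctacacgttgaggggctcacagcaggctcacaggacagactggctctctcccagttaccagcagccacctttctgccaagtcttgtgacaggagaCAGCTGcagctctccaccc

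TGACG occurred in 17.8% of 32851 RefSeq promoters of the same length. For AGGTCA this was 4607 promoters, for TATAAA 12.4% and for CAGCTG 4271 promoters. CCAAT, found in 33.8%, was in the promoters of *Cox7a1*, at 137 and 74 bases on the opposite strand, and of *Prdm16*, at 98 bases. A match is a string of letters and was not tested as a site. Promoters of *Cidea*, *Elovl3*, *Kcnk3* and *Adrb3* were not used here.

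In WT control nerve the genes differed widely in level. Per kilobase of merged exon (RPKM), *Cox8b* was at 20.8 ± 5.74 (SD, n = 4) and *Cox7a1* at 14.8 ± 1.82, both of them genes of small subunit isoforms of cytochrome c oxidase, the terminal enzyme of the respiratory chain. These lay above the other genes by more than the SDs, but not apart from each other. *Prdm16* followed at 4.25 ± 0.549 RPKM, *Adrb3* at 3.68 ± 1.43, *Kcnk3* at 3.42 ± 0.531 and *Cidea* at 2.64 ± 2.28, and neighbours in this order did not differ beyond their SDs. *Ppargc1a* was at 1.92 ± 0.222 RPKM, *Ucp1* at 1.12 ± 1.34, *Dio2* at 0.522 ± 0.0522 and *Elovl3* at 0.0501 ± 0.0883, and in this stretch only the step from *Dio2* to *Elovl3* exceeded the SDs. Some relatives of these genes were more abundant and others less. *Ucp2*, which encodes another mitochondrial carrier of the uncoupling protein family, was at 56.6 ± 5.25 RPKM (SD, n = 4), *Cox8a* at 241 ± 18.7 RPKM, *Cox7a2* at 62.7 ± 4.96 RPKM and *Cidec*, a lipid droplet gene of adipocytes, at 162 ± 16.3 RPKM. Below their relatives among the 10 genes were *Ppargc1b* at 0.994 ± 0.175 RPKM, *Dio3* at 0.380 ± 0.118 RPKM and *Cideb* at 0.0719 ± 0.0400 RPKM, while *Cox8c* had no counts in WT control.

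**Figure D1:**
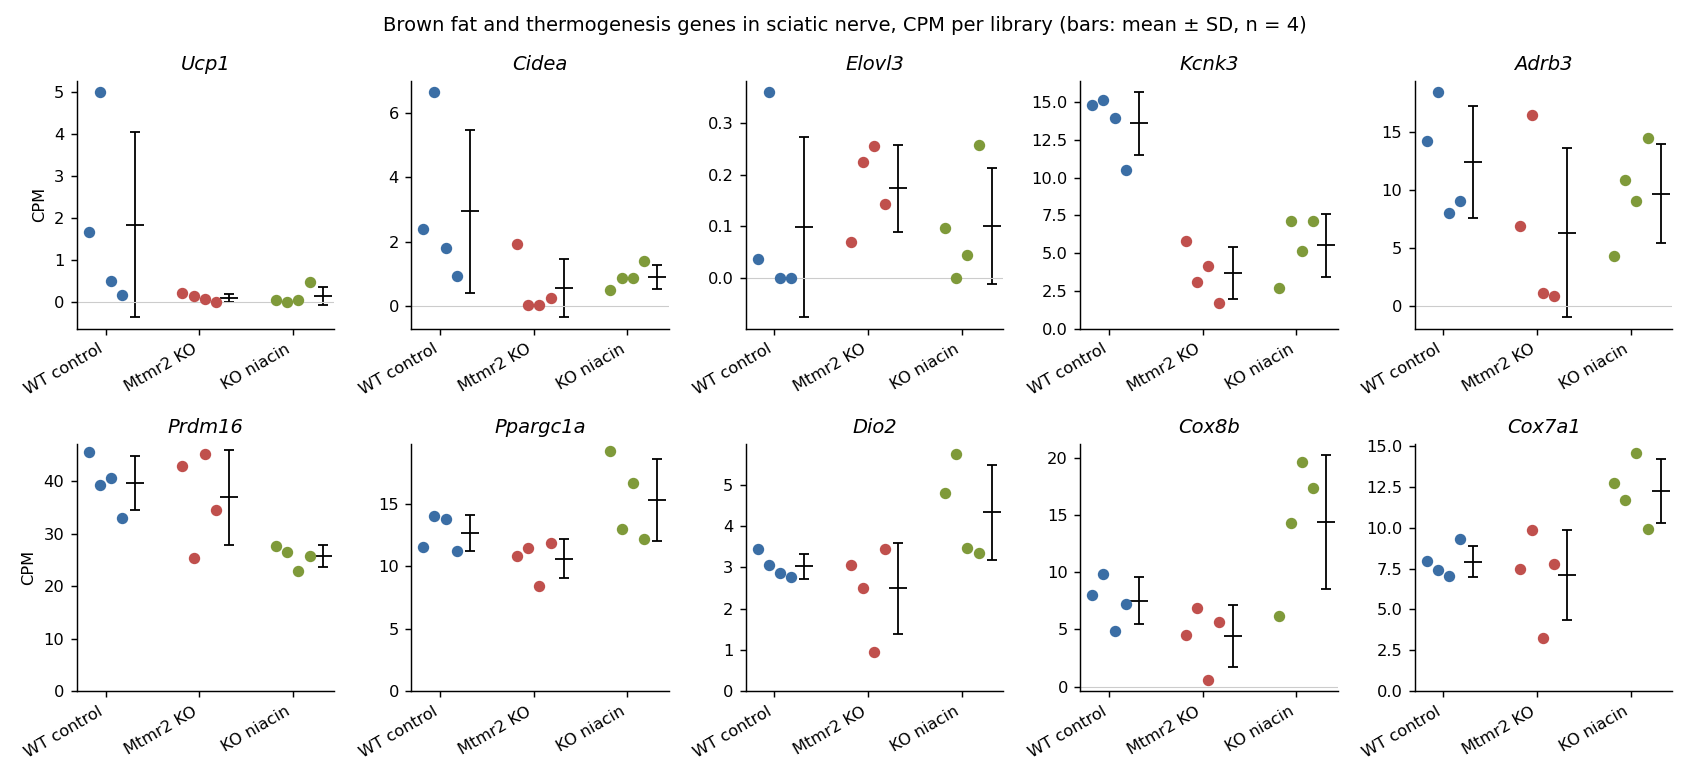
Level of each of the 10 genes in CPM (vertical axis, linear) in 12 libraries, 4 for each group (KO niacin marks the treated mice). Points are libraries and black bars the mean ± SD. *Kcnk3* lies between 10.5 and 15.1 CPM in WT control and between 1.68 and 7.11 CPM in the 8 libraries labelled *Mtmr2* -/-, while *Ucp1* reaches 4.99 CPM in 1 WT control library and 0.471 CPM at most in the other groups.

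*Ucp1* (ENSMUSG00000031710, GRCm38 chr8:83290352-83298452, + strand), the defining gene of brown and beige adipocytes, was detected at a low and very uneven level. The WT control libraries 4497, 4498, 4499 and 4500 had 1.67, 4.99, 0.508 and 0.171 CPM, which are 46, 139, 14 and 5 counts. The *Mtmr2* KO libraries 4501, 4502, 4503 and 4504 had 0.209, 0.134, 0.0640 and 0 CPM, or 6, 3, 2 and 0 counts. The niacin-treated libraries 4505, 4506, 4507 and 4508 had 0.0489, 0, 0.0456 and 0.471 CPM, or 1, 0, 1 and 11 counts. Library 4498 held most of the *Ucp1* counts of the series, and the lowest WT control library lay below the highest of both other groups, so the groups overlapped. The mean was 1.84 ± 2.20 CPM (SD, n = 4) in WT control, 0.102 ± 0.0900 in *Mtmr2* KO and 0.141 ± 0.221 under niacin. The log2 fold change of *Mtmr2* KO versus WT control was -4.06 (SE 1.08, edgeR adjusted p = 0.103). The p values named in this way come from its quasi-likelihood F-test and were adjusted over all genes tested by the method of Benjamini and Hochberg. The same log2 fold change was -3.85 without the library labelled 4503 (edgeR adjusted p = 0.153). Without WT control 4498, the library of high *Xist* in its group, it was -2.84 (edgeR adjusted p = 0.267), and with *Xist* as a covariate it was -3.81 (edgeR adjusted p = 0.132). Over 21 alternatives it lay between -4.68 and -2.84 and was called in 3. DESeq2 over all 12 libraries called this difference (log2 fold change -4.17, DESeq2 adjusted p = 0.0455). Niacin versus WT control was -3.62 (SE 1.05, edgeR adjusted p = 0.101), with -2.40 without WT control 4498 (edgeR adjusted p = 0.265) and -5.69 without niacin-treated 4508 (edgeR adjusted p = 0.176). It lay between these in 21 alternatives, of which 6 called it, among them limma-voom (limma adjusted p = 0.0131) and edgeR on the 2 groups alone (edgeR adjusted p = 0.0260). Niacin versus *Mtmr2* KO was 0.44 (SE 1.39, edgeR adjusted p = 0.885), with an interval of 2 SE each side from -2.33 to 3.21, and it was -1.63 without niacin library 4508.

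*Cidea* (ENSMUSG00000024526), which encodes a lipid droplet protein abundant in brown fat, was highest in the same WT control library as *Ucp1*. It had 2.40, 6.64, 1.81 and 0.921 CPM in WT control 4497 to 4500. In *Mtmr2* KO it had 1.91 CPM in 4501 but 0.0447, 0.0320 and 0.240 CPM in 4502, 4503 and 4504, which are 1, 1 and 5 counts. Under niacin it had 0.489, 0.866, 0.867 and 1.41 CPM. The groups overlapped, with log2 fold changes of -2.34 (SE 0.86, edgeR adjusted p = 0.195) for *Mtmr2* KO versus WT control and -1.68 (SE 0.84, edgeR adjusted p = 0.224) for niacin versus WT control. The latter was called in 2 of 22 alternatives, DESeq2 and edgeR on the 2 groups alone (DESeq2 adjusted p = 0.00262 and edgeR adjusted p = 0.0360), and was -0.90 without WT control 4498 (edgeR adjusted p = 0.565). The former was -1.92 without the library labelled 4503 (edgeR adjusted p = 0.244), and without library 4501 it was -4.86 and called (edgeR adjusted p = 0.0243). Over 22 alternatives the former lay between -4.86 and -1.38 and was called in 1. Treated and untreated *Mtmr2* KO differed by 0.66 (SE 0.90, edgeR adjusted p = 0.716), by 3.18 without 4501 (edgeR adjusted p = 0.102) and by 0.24 without 4503 (edgeR adjusted p = 0.940). Over the 12 libraries the log2 CPM of *Cidea* and *Ucp1* had a Pearson r of 0.72, and of 0.58 with the group means removed, which is a description of 12 libraries and not a test. The 5 genes whose log2 CPM was most like that of *Ucp1* over the 12 libraries were *Ankmy1*, *Man2a1*, *Has3*, *Ralgapa2* and *Acacb*, with r of 0.82 to 0.83. Of these, *Acacb* encodes an acetyl-CoA carboxylase that restrains fatty acid oxidation.

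*Elovl3* (ENSMUSG00000038754), which encodes a fatty acid elongase induced by cold in brown fat, was at the limit of detection. It had between 0 and 10 counts per library, at most 0.359 CPM in WT control 4498, 0.256 CPM in *Mtmr2* KO 4503 and 0.257 CPM in niacin 4508. It did not pass the filter on low counts and has no fold change here. The groups overlapped in every comparison, with an exact permutation p of 0.286 for *Mtmr2* KO versus WT control, 0.286 for niacin versus *Mtmr2* KO and 0.743 for niacin versus WT control, and edgeR without the filter did not call it. Its exons overlap those of *Pitx3* on the opposite strand, as those of *Dio2*, *Kcnk3*, *Prdm16* and *Adrb3* overlap antisense transcripts, and reads of such pairs cannot be told apart unless counted by strand, and no source used here says how strand was treated.

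Set against adipocyte RNA, *Ucp1* and *Cidea* were rare. *Adipoq*, the adiponectin gene of adipocytes, was at 217 to 297 CPM in WT control, 60.3 to 442 CPM in *Mtmr2* KO and 201 to 359 CPM under niacin. For every 1000 *Adipoq* counts there were 6.38, 17.1, 2.34 and 0.575 *Ucp1* counts in WT control, 1.67, 0.303, 0.565 and 0 in *Mtmr2* KO, and 0.244, 0, 0.131 and 1.31 under niacin. The ratio varied within WT control by more than *Adipoq* itself did. On the log2 scale, with 0.5 added to each count, the ratio differed by -2.47 in *Mtmr2* KO versus WT control (exact permutation p = 0.0857, two-sided), by -3.62 in niacin versus WT control (exact permutation p = 0.0571) and by -1.15 in niacin versus *Mtmr2* KO (exact permutation p = 0.286). The first and the second of these had an adjusted p of 0.206 over the 12 ratio tests by this exact permutation test, whose smallest raw p is 0.0286 with 4 libraries against 4. For *Cidea*, 1000 *Adipoq* counts came with 3.10 to 22.8 counts in WT control, 0.101 to 15.3 in *Mtmr2* KO and 2.44 to 3.93 under niacin. Its 3 differences had adjusted p values from 0.206 to 0.561 by the exact permutation test.

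**Figure D2:**
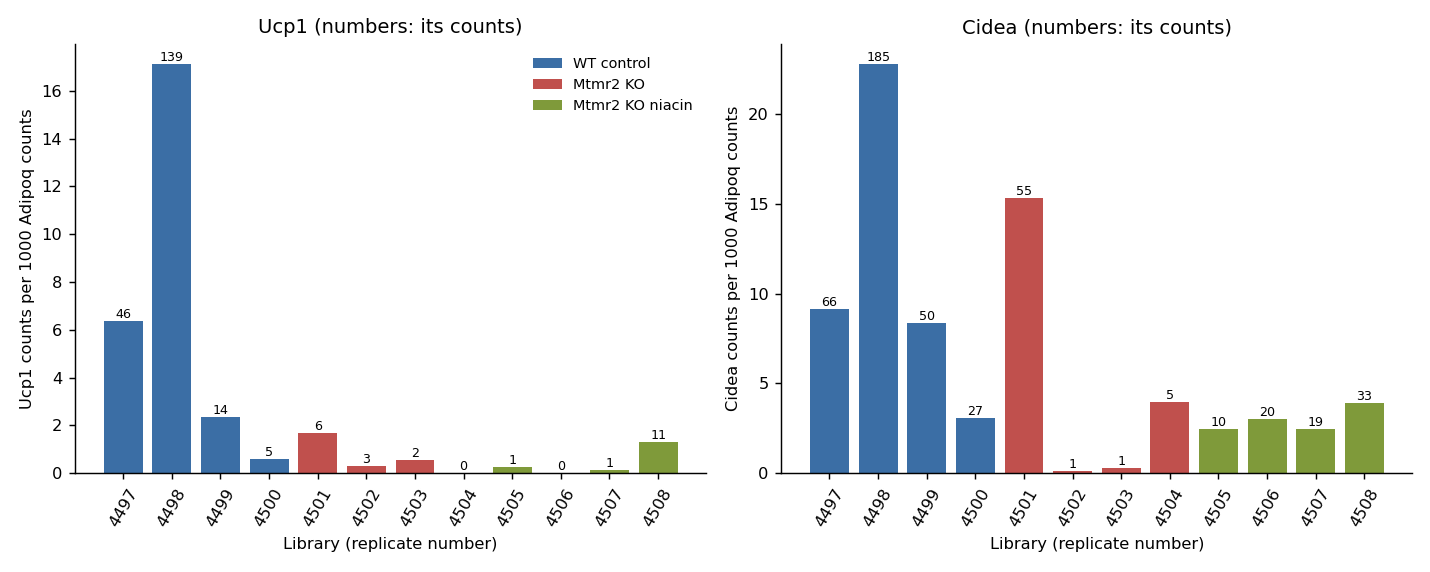
Counts of *Ucp1* (left) and *Cidea* (right) per 1000 counts of *Adipoq* (vertical axes, linear from 0) in each of the 12 libraries, coloured by group, with the gene's own count above each bar. The tallest bar of both panels is WT control 4498, at 17.1 for *Ucp1* and 22.8 for *Cidea*, and *Mtmr2* KO 4501 stands at 15.3 for *Cidea* beside 0.101 to 3.98 in the rest of its group.

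Genes of the transcription factors that mark the classical brown lineage were near the limit of detection. *Zic1* was at 0.182 to 0.814 CPM and *Lhx8* at 0.0696 to 0.520 CPM over the 12 libraries. The other markers on this list of 6, *Mpzl2*, *Letmd1*, *Pank1* and *Otop1*, had means of 6.41 to 48.0 CPM. Of the 5 genes tested, edgeR called 0 in each comparison and DESeq2 over all 12 libraries also 0, with 0, 1 and 2 of them at an unadjusted edgeR p under 0.05 in *Mtmr2* KO versus WT control, niacin versus *Mtmr2* KO and niacin versus WT control. For this list and the next, the shares of all genes at that p were 17.2%, 20.1% and 24.7%. Among 5 markers used for beige adipocytes, the inducible thermogenic cells of white fat, *Hoxc9* was the most abundant at 4.17 to 7.11 CPM and *Tmem26* was at 0.435 to 1.74 CPM. edgeR called 0 of the 4 that were tested in each comparison, with 0, 1 and 1 at an unadjusted p under 0.05, and DESeq2 over all 12 libraries called 1 of them, lower under niacin than in WT control. In that comparison DESeq2 called 7.56% of all genes it tested.

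*Kcnk3* (ENSMUSG00000049265, GRCm38 chr5:30588170-30625271, + strand) was the one gene of the 10 that edgeR called with all 12 libraries in 1 filtered fit. It encodes a potassium channel that stays open at rest, and in brown adipocytes its current opposes the depolarisation that adrenergic stimulation causes. Libraries 4497 to 4500 of WT control, in that order, held 14.8, 15.1, 13.9 and 10.5 CPM of it, *Mtmr2* KO 4501 to 4504 held 5.78, 3.09, 4.16 and 1.68 CPM, and niacin-treated 4505 to 4508 held 2.69, 7.10, 5.16 and 7.11 CPM. All 4 WT control libraries lay above all 8 libraries labelled *Mtmr2* -/-, including 4503, and the latter 2 groups overlapped. *Kcnk3* fell 3.66-fold in *Mtmr2* KO, from 13.6 ± 2.11 to 3.68 ± 1.73 CPM (SD, n = 4). On the log2 scale this was -1.87 (SE 0.34, edgeR adjusted p = 0.0448). The exact permutation p was 0.0286, the smallest this design allows. The log2 fold change lay between -2.18 and -1.65 in 23 alternatives, of which 10 called it, and the call was lost with edgeR on the 2 groups alone (edgeR adjusted p = 0.0953), with *Xist* as a covariate (edgeR adjusted p = 0.0602) and without single libraries. These were each WT control library (4497, 4498, 4499 and 4500, edgeR adjusted p = 0.139, 0.122, 0.153 and 0.101), *Mtmr2* KO 4502 and 4503 (edgeR adjusted p = 0.0533 and 0.0834) and niacin 4506, 4507 and 4508 (edgeR adjusted p = 0.0550, 0.0663 and 0.0581). It was also lost without 4506 and 4507 together (edgeR adjusted p = 0.0689) and without 4502 and 4503 together (edgeR adjusted p = 0.132). Niacin versus WT control was -1.30 (SE 0.34, edgeR adjusted p = 0.0871), between -1.51 and -0.92 in 23 alternatives, of which 7 called it. Those were DESeq2 over all 12 libraries (DESeq2 adjusted p = 0.00699) and over the 2 groups alone, limma-voom, edgeR on the 2 groups alone (edgeR adjusted p = 0.00441), edgeR without a filter, and edgeR without 4502 or without 4502 and 4503. For *Kcnk3*, niacin versus *Mtmr2* KO was 0.57 (SE 0.34, edgeR adjusted p = 0.364), with an interval of 2 SE each side from -0.11 to 1.26.

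The level of *Kcnk3* was compared with that of other genes over the 12 libraries. Among all genes tested, the 5 whose log2 CPM had the highest Pearson r with it over the 12 libraries were *Lipe* (0.97), *Mfng* (0.97), *Klhdc7a* (0.96), *Cebpa* (0.96) and *Aoc3* (0.95), with 0.93, 0.96, 0.95, 0.90 and 0.84 after the group means were removed. *Lipe* encodes hormone-sensitive lipase, *Cebpa* a transcription factor of adipocyte differentiation and *Aoc3* an amine oxidase abundant in adipocytes. *Plin1*, the coat protein gene of adipocyte lipid droplets, was itself lower in *Mtmr2* KO (log2 fold change -1.84, edgeR adjusted p = 0.0448), with r of 0.94 and 0.95. Other adipocyte genes were less like it, *Adipoq* having r of 0.47 (0.34 with the group means removed) and *Lep* 0.68 (0.25). For every 1000 *Plin1* counts there were 64.5, 62.5, 88.6 and 63.1 *Kcnk3* counts in WT control, 67.8, 63.1, 67.1 and 64.8 in *Mtmr2* KO and 39.0, 48.0, 37.3 and 50.1 under niacin. The range in *Mtmr2* KO lay inside that in WT control, and all 4 niacin-treated libraries lay below both. For every 1000 *Lipe* counts the ranges were 70.7 to 97.7, 47.4 to 74.3 and 59.9 to 69.9. Both denominators were chosen after the values were seen, and these ratios were not tested. Whether the amount of fat on the nerves plays a part in the *Kcnk3* values was not tested.

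*Adrb3* (ENSMUSG00000031489, GRCm38 chr8:27225776-27250616, - strand), the receptor gene at the head of the thermogenic pathway in both brown and white adipocytes, varied within each group. It was at 14.2, 18.4, 7.98 and 9.04 CPM in WT control, 6.86, 16.5, 1.12 and 0.865 CPM in *Mtmr2* KO and 4.31, 10.8, 9.08 and 14.5 CPM under niacin. The 3 groups overlapped. Log2 fold changes were -0.98 (SE 0.69, edgeR adjusted p = 0.482) in *Mtmr2* KO versus WT control, 0.62 (SE 0.69, edgeR adjusted p = 0.645) in niacin versus *Mtmr2* KO and -0.36 (SE 0.68, edgeR adjusted p = 0.765) in niacin versus WT control. Single *Mtmr2* KO libraries moved these values. Without 4502 they were -2.07 (edgeR adjusted p = 0.135) in *Mtmr2* KO versus WT control and 1.68 (edgeR adjusted p = 0.0606) in niacin versus *Mtmr2* KO. Without 4503 they were -0.62 and 0.27, and without 4504 -0.63 and 0.27. No alternative called *Adrb3* in either comparison. Its log2 CPM followed *Adipoq* with a Pearson r of 0.89 over the 12 libraries, and of 0.86 with the group means removed.

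*Dio2* (ENSMUSG00000007682), whose promoter held the palindrome printed above, encodes the deiodinase that makes active thyroid hormone inside brown adipocytes. It was at 3.45, 3.05, 2.87 and 2.76 CPM in WT control, 3.06, 2.51, 0.960 and 3.46 CPM in *Mtmr2* KO and 4.80, 5.76, 3.47 and 3.34 CPM under niacin. The lowest value was that of the library labelled 4503. Niacin versus *Mtmr2* KO was 0.81 (SE 0.32, edgeR adjusted p = 0.184) with all libraries and 0.53 without 4503 (edgeR adjusted p = 0.331), and the groups overlapped. The other log2 fold changes were -0.29 (SE 0.32, edgeR adjusted p = 0.671) for *Mtmr2* KO versus WT control, which was -0.013 without 4503, and 0.52 (SE 0.32, edgeR adjusted p = 0.306) for niacin versus WT control.

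*Ppargc1a* (ENSMUSG00000029167) encodes PGC-1α, a coactivator of mitochondrial biogenesis in many tissues. It was at 11.5, 14.04, 13.7 and 11.2 CPM in WT control, 10.8, 11.4, 8.38 and 11.8 CPM in *Mtmr2* KO and 19.2, 12.9, 16.6 and 12.2 CPM under niacin. All 4 niacin-treated libraries lay above the *Mtmr2* KO libraries, with a log2 fold change of 0.53 (SE 0.17, edgeR adjusted p = 0.122, exact permutation p = 0.0286), of 0.43 without 4503 (edgeR adjusted p = 0.294) and of 0.55 and called without 4502 (edgeR adjusted p = 0.0484). The other comparisons were -0.25 (SE 0.17, edgeR adjusted p = 0.464) for *Mtmr2* KO versus WT control and 0.27 (SE 0.17, edgeR adjusted p = 0.320) for niacin versus WT control.

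*Prdm16* (ENSMUSG00000039410), which encodes a transcriptional regulator of brown adipocyte identity that other cell types also express, had its lowest group mean under niacin, at 25.7 ± 2.07 CPM (SD, n = 4). It was at 45.5, 39.4, 40.6 and 33.1 CPM in WT control, 42.9, 25.3, 45.2 and 34.5 CPM in *Mtmr2* KO and 27.7, 26.5, 22.9 and 25.9 CPM under niacin. The niacin-treated libraries lay below all WT control libraries, and *Mtmr2* KO 4502 was as low as they were. The log2 fold change of niacin versus WT control was -0.62 (SE 0.17, edgeR adjusted p = 0.0922, exact permutation p = 0.0286), which DESeq2 over all 12 libraries called (DESeq2 adjusted p = 0.0247). It lay between -0.72 and -0.32 in 23 alternatives, of which 6 called it. The other calls came from DESeq2 and edgeR on the 2 groups alone, limma-voom, and edgeR without 4502 or without 4502 and 4503. Against *Mtmr2* KO, niacin gave -0.52 (SE 0.17, edgeR adjusted p = 0.118), -0.41 without 4503 and -0.68 and called without 4502 (edgeR adjusted p = 0.00623). *Mtmr2* KO versus WT control was -0.10 (SE 0.17, edgeR adjusted p = 0.787). Over the 12 libraries its log2 CPM had a Pearson r of 0.12 with that of *Plin1*, 0.41 with *Lipe* and -0.52 with *Adipoq*. With the muscle gene *Ckm* r was -0.56, and with the smooth muscle gene *Acta2* it was -0.32. With the group means removed these were, in the same order, 0.28, 0.47, -0.63, -0.067 and -0.72. The exons of *Prdm16* sum to 9321 bases, and with offsets for transcript length and GC content niacin versus WT control was -0.32 (edgeR adjusted p = 0.176).

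**Figure D3:**
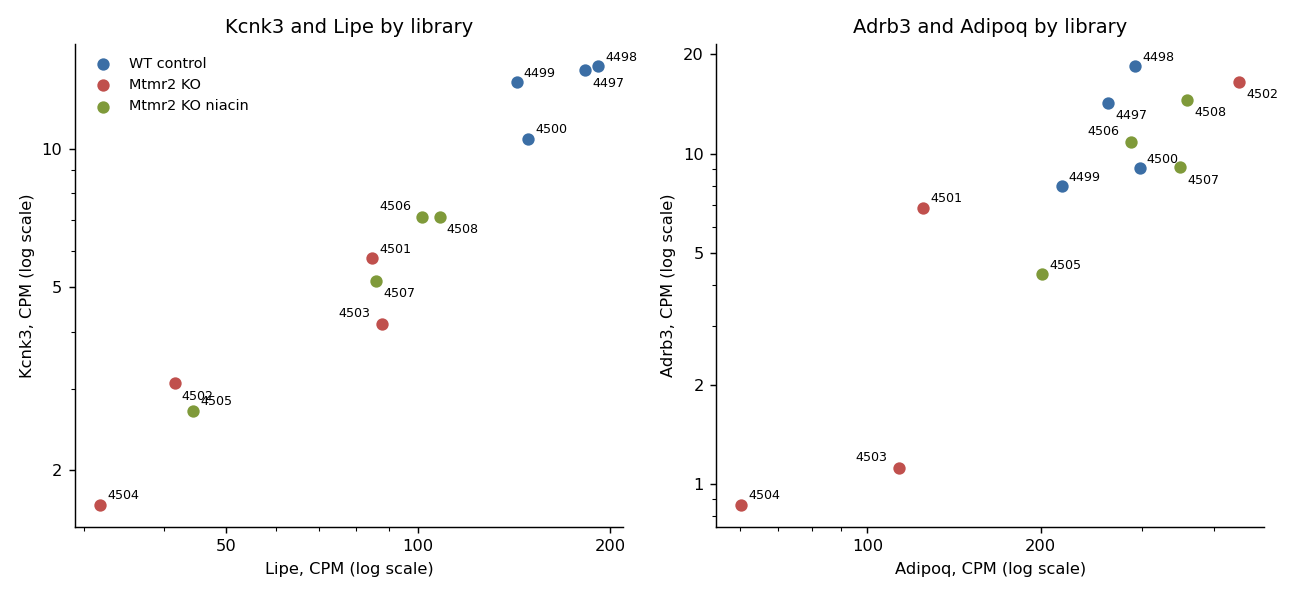
CPM of *Kcnk3* against *Lipe* and of *Adrb3* against *Adipoq* (all axes on log scales), 1 point per library, labelled by replicate number and coloured by group. WT control libraries lie at the upper right of the *Kcnk3* panel, at 10.5 to 15.1 CPM, and in the *Adrb3* panel the groups overlap, with *Mtmr2* KO between 0.865 and 16.5 CPM.

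*Cox8b* and *Cox7a1* encode the isoforms of their cytochrome c oxidase subunits found in brown fat, heart and skeletal muscle. *Cox8b* (ENSMUSG00000025488, GRCm38 chr7:140898945-140900446, - strand) was at 8.03, 9.87, 4.90 and 7.20 CPM in WT control, 4.52, 6.89, 0.576 and 5.62 CPM in *Mtmr2* KO and 6.22, 14.3, 19.7 and 17.3 CPM under niacin. Niacin-treated 4505 lay among the WT control and *Mtmr2* KO libraries and the other 3 above them. Niacin versus *Mtmr2* KO was 1.72 (SE 0.52, edgeR adjusted p = 0.100) with all libraries, 1.34 without 4503 (edgeR adjusted p = 0.108) and 2.01 and called without 4502 (edgeR adjusted p = 0.0233). *Cox7a1* (ENSMUSG00000074218, GRCm38 chr7:30184144-30186078, + strand) was at 7.96, 7.40, 7.07 and 9.28 CPM in WT control, 7.45, 9.84, 3.26 and 7.78 CPM in *Mtmr2* KO and 12.7, 11.7, 14.6 and 9.93 CPM under niacin. All niacin-treated libraries were above all others, though 4508 and *Mtmr2* KO 4502 were close. Niacin versus *Mtmr2* KO was 0.79 (SE 0.26, edgeR adjusted p = 0.122, exact permutation p = 0.0286), 0.55 without 4503 and 0.98 and called without 4502 (edgeR adjusted p = 0.0185), and DESeq2 over all 12 libraries called it (DESeq2 adjusted p = 0.0477). Niacin versus WT control was 0.94 (SE 0.50, edgeR adjusted p = 0.250) for *Cox8b* and 0.62 (SE 0.26, edgeR adjusted p = 0.172, exact permutation p = 0.0286) for *Cox7a1*. Over 23 alternatives of that comparison, the offsets for transcript length and GC among them, *Cox8b* lay between 0.61 and 1.21 and *Cox7a1* between 0.49 and 0.77. Both were called in 4 of 23 alternatives of that comparison, with DESeq2 and with edgeR on the 2 groups alone (edgeR adjusted p = 0.0335 and 0.00668), with limma-voom, and without 4502 and 4503 together. *Mtmr2* KO versus WT control was -0.78 (SE 0.51, edgeR adjusted p = 0.453) for *Cox8b*, -0.41 without 4503, and -0.17 (SE 0.26, edgeR adjusted p = 0.768) for *Cox7a1*, which turned to 0.074 without 4503.

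As a share of *Cox8a* and *Cox8b* counts together, *Cox8b* made up 5.26%, 6.53%, 3.28% and 4.15% in WT control, 3.33%, 2.56%, 0.482% and 3.45% in *Mtmr2* KO and 3.08%, 7.46%, 8.80% and 8.31% under niacin. The 95% Wilson intervals of the 3 high niacin-treated libraries lay above those of all others, except that the interval of 4506 overlapped that of WT control 4498. These intervals cover counting error only, not the spread between mice. *Cox7a1* made up 11.1% to 12.3% of *Cox7a1* and *Cox7a2* counts in WT control, 6.68% to 11.4% in *Mtmr2* KO and 9.35% to 14.3% under niacin, so that on this scale the niacin-treated libraries overlapped both groups. Muscle RNA was measured beside these values. *Ckm*, the muscle creatine kinase gene, was at 252 and 272 CPM in niacin-treated 4506 and 4507, at 4.36 and 6.08 CPM in 4505 and 4508 and at 0.224 to 3.52 CPM in the other 8 libraries. *Cox6a2*, a cytochrome c oxidase gene of muscle, was at 13.03 and 21.8 CPM in 4506 and 4507 and at 0.728 CPM at most elsewhere. Library 4508, where the 12 muscle markers summed to 119 CPM, had *Cox8b* at 17.3 CPM. The muscle marker *Myh2* was at 12.1 CPM in 4508, 6.15 CPM in 4506 and 43.7 CPM in 4507. It was the exception, since every other marker of the 12 was lower in 4508 than in both 4506 and 4507. *Myh4*, for example, was at 13.2 CPM in 4508 against 974 and 662 CPM. With 4506 and 4507 left out, niacin versus *Mtmr2* KO was 1.41 for *Cox8b* (edgeR adjusted p = 0.394) and 0.68 for *Cox7a1* (edgeR adjusted p = 0.437). On the log2 scale the ratio of *Cox8b* to *Ckm* was -4.14 and -3.79 in 4506 and 4507 and between 0.51 and 4.36 in the other 10 libraries. The 3 differences in this ratio between groups had adjusted p values of 0.229 to 0.971 by the exact permutation test, and those in the ratio of *Cox7a1* to *Ckm* of 0.206 to 0.343. *Orm1*, an acute phase protein gene also made by adipocytes, and *Mpc2*, a mitochondrial pyruvate carrier gene, were with *C430049B03Rik*, *Cib2* and *Cdkn2c* the 5 genes whose log2 CPM was most like that of *Cox8b*, with Pearson r of 0.93 to 0.94 over the 12 libraries. They are the highest of all genes tested, so their r cannot be set against that of a marker named beforehand. For *Ckm* the Pearson r with *Cox8b* was 0.70 and the rank correlation (Spearman rho) 0.80.

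**Figure D4:**
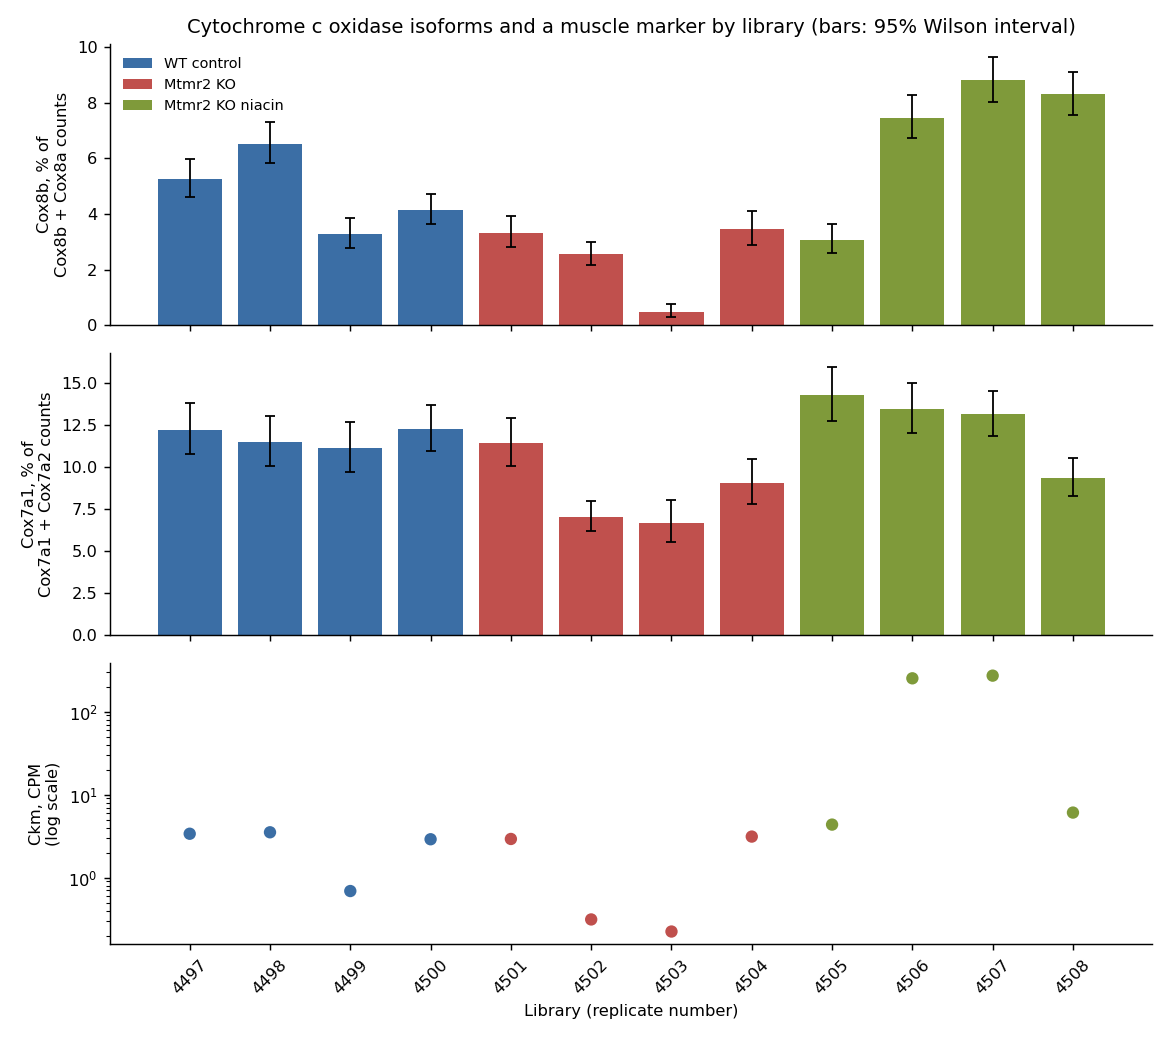
Share of *Cox8b* in *Cox8b* plus *Cox8a* counts and of *Cox7a1* in *Cox7a1* plus *Cox7a2* counts (bars from 0, in percent, with 95% Wilson intervals that cover counting error only), and *Ckm* in CPM (log axis), for each library by replicate number. *Cox8b* takes 7.46% to 8.80% in niacin-treated 4506, 4507 and 4508, while *Ckm* is at 252 and 272 CPM in the first pair and at 6.08 CPM in 4508.

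Of the 10 genes, 9 passed the filter on low counts and were tested. In *Mtmr2* KO versus WT control edgeR called 1 of the 9 (*Kcnk3*, lower), beside 46 of 17257 genes (0.267%). All 9 log2 fold changes were negative, beside 7930 of the 17257 genes tested, with a median of -0.78 against 0.033 over all genes tested. The groups of 1 gene did not overlap, against 9.33% of all genes. At an unadjusted p under 0.05 were 3 of the 9 and 17.2% of all genes. Niacin versus *Mtmr2* KO gave 0 calls by edgeR among the 9, beside 1.43% of all genes. At an unadjusted p under 0.05 were 5 of the 9 and 20.1% of all genes. Here 8 of the 9 log2 fold changes were positive, with *Prdm16* negative, beside 7924 of 17257 genes positive. The median was 0.62 against -0.035 over all genes. The groups of *Ppargc1a* and *Cox7a1* did not overlap, against 6.98% of all genes. In niacin versus WT control edgeR called 0 of the 9, with 4 at an unadjusted p under 0.05, and 0% of all genes, with 4254 of 17257 (24.7%) at an unadjusted p under 0.05. The median was -0.36 against 0.019, and *Kcnk3*, *Prdm16* and *Cox7a1* had groups that did not overlap, against 31.4% of all genes. DESeq2 over all 12 libraries called 2, 1 and 2 of the genes in the 3 comparisons (*Ucp1* and *Kcnk3*, *Cox7a1*, and *Kcnk3* and *Prdm16*), beside 3.77%, 6.42% and 7.56% of all genes it tested. limma-voom with sample quality weights called 1, 3 and 5, beside 0.626%, 11.6% and 42.4% of all genes. The 3 comparisons share their groups of libraries, so that signs and counts in one are tied to those in another. Some of the 9 genes also varied together over the libraries, so their signs are not separate observations. With *Ucp1*, log2 CPM had a Pearson r of 0.72 for *Cidea* and 0.76 for *Kcnk3*, but -0.0014 for *Ppargc1a*.

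**Figure D5:**
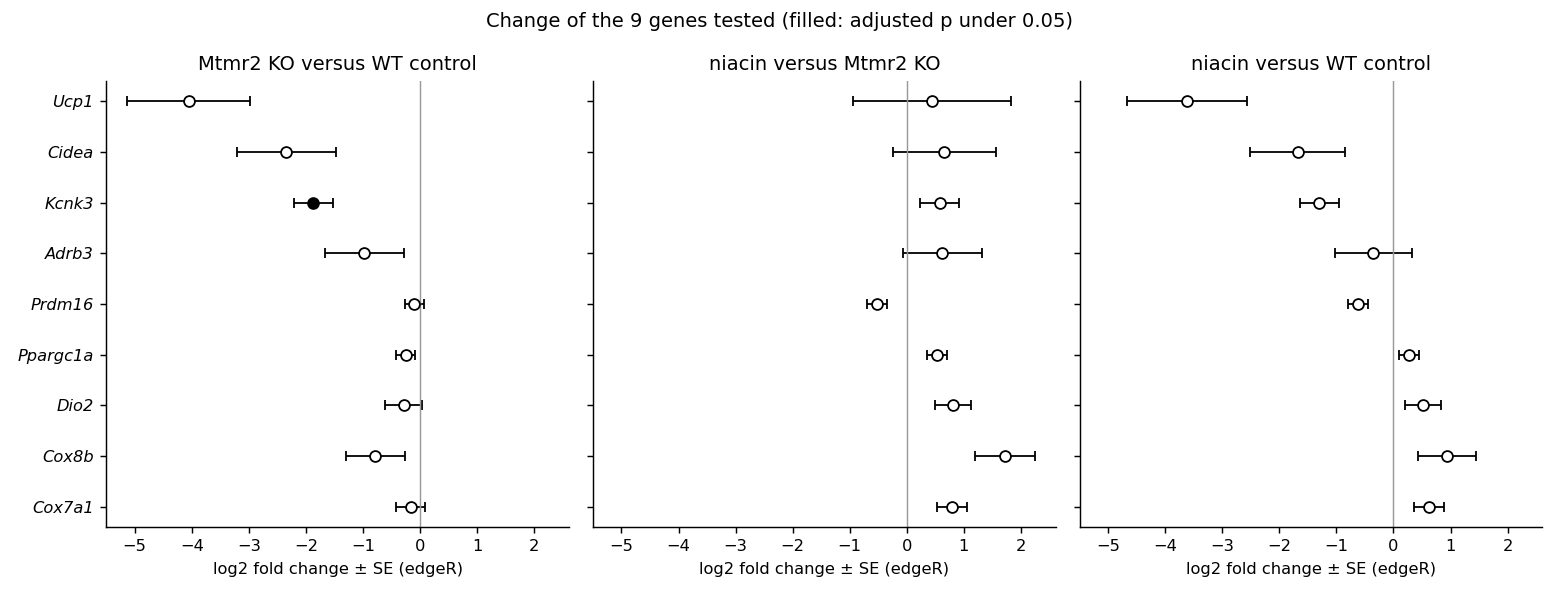
Log2 fold change ± SE from edgeR (horizontal axis) of the 9 genes tested, in the 3 comparisons. The 1 filled point, an adjusted p under 0.05, is *Kcnk3* in *Mtmr2* KO versus WT control at -1.87, and the widest error bars belong to *Ucp1* and *Cidea*.

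Other genes of the thermogenic pathway, in the 5 lists that follow, gave 0 edgeR calls in each comparison. Their counts at an unadjusted p under 0.05 and by DESeq2 over all 12 libraries stand beside the shares of all genes given above, 17.2%, 20.1% and 24.7% and 3.77%, 6.42% and 7.56%, and nothing particular to a list is read from them. Of 19 genes of adrenergic and thyroid signalling, 18 were tested, with 14 lower in *Mtmr2* KO than in WT control by the sign of the estimate, a median of -0.30, and 7 at an unadjusted p under 0.05, beside 3 in niacin versus *Mtmr2* KO and 9 in niacin versus WT control. *Adcy5*, *Pde3b* and, further on, *Nrg4* and *Slc7a10* were chosen after their values were seen. *Adcy5*, an adenylyl cyclase gene, had -0.95 (edgeR adjusted p = 0.0666), and *Pde3b*, the phosphodiesterase gene through which insulin lowers cyclic AMP in adipocytes, had -1.14 (edgeR adjusted p = 0.0904). DESeq2 over all 12 libraries called 4 of the list lower in *Mtmr2* KO versus WT control, 1 higher in niacin versus *Mtmr2* KO and 3 lower in niacin versus WT control. *Thra*, *Prkar2b* and *Rxra*, of a thyroid hormone receptor, a regulatory subunit of protein kinase A and a retinoid receptor, were the most abundant, at means of 116, 110 and 88.5 CPM. Of 16 regulators of the thermogenic programme, all tested, the median was -0.024 in *Mtmr2* KO versus WT control, -0.11 in niacin versus *Mtmr2* KO and -0.25 in niacin versus WT control, with 2, 4 and 3 at an unadjusted p under 0.05 and 0, 0 and 1 called by DESeq2 over all 12 libraries. *Ebf2*, a factor of brown adipocyte precursors, was at a mean of 50.6 CPM with -0.20 in *Mtmr2* KO versus WT control (edgeR adjusted p = 0.390).

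Among 11 genes of uncoupling and futile cycles, 10 were tested and edgeR called 0, with 2, 2 and 4 at an unadjusted p under 0.05 in the 3 comparisons and 2, 1 and 0 called by DESeq2 over all 12 libraries. *Ucp2* had log2 fold changes of -0.12, -0.37 and -0.49, and *Ucp3*, the relative of skeletal muscle and brown fat, had -0.64 in *Mtmr2* KO versus WT control (edgeR adjusted p = 0.107) with groups that did not overlap. *Gatm* and *Ckb*, genes of creatine synthesis and of the creatine cycle, had 0.30 and 0.14 in that comparison. Among 16 genes of fatty acid oxidation, 14 were tested, with medians of -0.064, 0.17 and 0.12 and 4, 5 and 2 at an unadjusted p under 0.05. *Hadha* and *Hadhb*, of the trifunctional protein, and *Acadm*, of medium-chain acyl-CoA dehydrogenase, were the most abundant, and their log2 fold changes lay between -0.16 and 0.34. DESeq2 over all 12 libraries called 2, 2 and 1 of these genes. Of 8 secreted factors of brown fat, *Fgf21*, *Bmp8b* and *Gdf15* were too low to test. Of the other 5, edgeR called 0 in each comparison, with 3, 2 and 1 at an unadjusted p under 0.05, and DESeq2 over all 12 libraries called 0, 1 and 0. *Nrg4*, a neuregulin made by brown fat, had -0.87 (edgeR adjusted p = 0.201) in *Mtmr2* KO versus WT control and 1.14 (edgeR adjusted p = 0.0919) in niacin versus *Mtmr2* KO.

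Markers of the cells that could carry these RNAs were compared in the same fit. Their counts in *Mtmr2* KO versus WT control, niacin versus *Mtmr2* KO and niacin versus WT control stand beside shares of all genes. edgeR called 0.267%, 1.43% and 0% of all genes, and groups did not overlap in 9.33%, 6.98% and 31.4%. At an unadjusted p under 0.05 were 17.2%, 20.1% and 24.7%, and DESeq2 over all 12 libraries called 3.77%, 6.42% and 7.56%. Estimates in *Mtmr2* KO versus WT control were negative for 7930 of 17257 genes. Of 10 adipocyte markers, all had negative estimates in *Mtmr2* KO versus WT control, with a median of -0.88, and edgeR called *Lep* (-2.03, edgeR adjusted p = 0.0364) and *Plin1*. In the 3 comparisons 5, 3 and 3 of the 10 had an unadjusted p under 0.05, and DESeq2 over all 12 libraries called 5, 2 and 1. The groups of 5, 1 and 3 of them did not overlap. The summed level of the 10 markers was 3073 to 3913 CPM in WT control, 841 to 4732 CPM in *Mtmr2* KO and 2364 to 4714 CPM under niacin, with no marker at 0 in any library. *Lep*, the leptin gene of white adipocytes, had 1.84 in niacin versus *Mtmr2* KO (edgeR adjusted p = 0.0383). *Slc7a10*, an amino acid transporter gene that marks white adipocytes, had -1.34 (edgeR adjusted p = 0.118) in *Mtmr2* KO versus WT control. Of 12 skeletal muscle markers 11 were tested, and edgeR called 8 of them higher in niacin versus *Mtmr2* KO, with *Ckm* at 6.36 (edgeR adjusted p = 0.0425). It called 0 of them when either group was set against WT control, where 0 for *Mtmr2* KO and 11 for niacin had an unadjusted p under 0.05, and DESeq2 over all 12 libraries likewise called 0 and 11. These calls were not kept in all alternatives. No gene at all was called in niacin versus *Mtmr2* KO, *Lep* and the muscle markers included, with edgeR on the 2 groups alone, without 4497, 4499, 4500, 4506 or 4507 singly, or without 4506 and 4507 together. In *Mtmr2* KO versus WT control, *Lep* and *Plin1* included, this was so with edgeR on the 2 groups alone and without any 1 of the WT control libraries, 4507 or 4508. Of 7 markers of vascular smooth muscle and pericytes, 6 had negative estimates in *Mtmr2* KO versus WT control, with a median of -0.70 and 3 whose groups did not overlap. edgeR called 0 of them in each comparison, with 3, 1 and 4 at an unadjusted p under 0.05, and DESeq2 over all 12 libraries called 2, 0 and 2. *Cnn1* and *Myh11*, contractile genes of smooth muscle named after their values were seen, had -3.51 (edgeR adjusted p = 0.0566) and -1.56 (edgeR adjusted p = 0.0904) in *Mtmr2* KO versus WT control. *Acta2*, smooth muscle actin, had -0.70 (edgeR adjusted p = 0.434), and its log2 CPM had a Pearson r of 0.40 with that of *Kcnk3* over the 12 libraries. The groups of *Cnn1*, *Myh11* and *Kcnj8* did not overlap in *Mtmr2* KO versus WT control, as those of *Kcnk3* did not, and those of *Acta2* did. No r with *Kcnk3* is given here for the other markers of this list, and the r of *Acta2* does not stand for them. edgeR also called 0 of 6 Schwann cell, 5 macrophage and 3 tested sensory neuron markers in each comparison. At an unadjusted p under 0.05 were 0, 1 and 1 of the first, 0, 2 and 1 of the second and 1, 0 and 1 of the last, and DESeq2 over all 12 libraries called 0, 0 and 1, 0, 0 and 0, and 1, 0 and 0. The part of these cell types in the values of the thermogenic genes was not tested.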

How the data were processed

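PolyA-selected RNA was sequenced from 12 sciatic nerves, 1 mouse per library. Reads were aligned by the authors with STAR (GRCm38), and the deposited counts are whole reads per Ensembl gene, not normalized. No source used here gives the counting program or strand handling, and CASAVA 1.9 and DESeq2 are named in the submitters' processing notes. The authors' own comparison tables hold fold changes and p-values, and only their gene symbols were used.

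Genes were filtered with filterByExpr and scaled by TMM, which left 17257. One quasi-likelihood model over all 12 libraries was fitted in edgeR 4.0.16 (R 4.3.3), with a Benjamini-Hochberg adjusted p under 0.05 as a call. SE is the log2 fold change divided by the square root of F. Log2 CPM used a prior count of 2 and log2 ratios an offset of 0.5. Single values were compared by exact two-sided permutation over the 70 splits, whose smallest p is 0.0286. Shares carry 95% Wilson intervals.

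Alternatives used DESeq2 1.42.0, limma 3.58.1, other filters and scalings, *Xist* as a covariate, and single libraries left out. Tested on simulated data, the edgeR step recovered 76%, 74% and 75% of 2-fold changes in *Mtmr2* KO versus WT control (17013 genes), niacin versus *Mtmr2* KO (16995) and niacin versus WT control (16978), and 98%, 100% and 100% of 4-fold changes, with 11, 7 and 8 false calls. The changed genes were drawn only from genes above a limit on mean counts, which *Ucp1*, *Cidea* and *Elovl3* do not reach. Apart from these changes, all simulated libraries shared 1 expected level per gene, so no library stood apart as some did here. These shares therefore do not give the power for genes of few counts or for the real libraries.

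The genes and the lists were chosen with earlier results of these data known. The rule named the 10 genes, up to 3 called and the 3 most abundant genes of each list, relatives and denominators, and the 5 genes most like *Ucp1*, *Cox8b* and *Kcnk3*. Some of these are not reported here.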

Additional observations from a re-analysis of the deposited data

Results flagged for a closer look

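In 105 checks of 4 libraries each, the highest or lowest library was compared with the rest of its group by Dixon's ratio, which chance passes in about 1 of 20 groups. It was passed by 6 values. *Ucp1* in niacin-treated library 4508 was 0.471 CPM beside 0 to 0.0489 CPM in the rest of the group, and per 1000 *Ucp2* counts it was 2.26 beside 0 to 0.173. *Cidea* in *Mtmr2* KO library 4501 was 1.91 CPM beside 0.0320 to 0.240 CPM. *Elovl3* in WT control library 4498, which also had the highest *Ucp1* and *Cidea* and, at 544 CPM, the one high *Xist* level of its group, was 0.359 CPM beside 0 to 0.0363 CPM. In WT control library 4499 the log2 ratio of *Cox8b* to *Ckm* was 2.80 beside 1.24 to 1.48, and there were 88.6 *Kcnk3* counts per 1000 *Plin1* counts beside 62.5 to 64.5.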

How the results depend on the processing

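Of the thermogenic genes, the main analysis called 1 in *Mtmr2* KO versus WT control, 0 in niacin versus *Mtmr2* KO and 0 in niacin versus WT control. In *Mtmr2* KO versus WT control the number was 2 with DESeq2 over all 12 libraries, with DESeq2 over only the 2 groups and without a filter, 0 with edgeR on only the 2 groups, with *Xist* as a covariate, without 4506 and 4507, and without 4502 and 4503, and 0 to 2 when single libraries were left out. The settings that gave 2 called 683 of 18096, 427 of 17649 and 341 of 33882 of all genes, and 457 of 17564 without 4501. In niacin versus *Mtmr2* KO it was 1 with DESeq2 over all 12 libraries and without a filter, 3 with limma-voom and without 4502 and 4503, and 0 to 4 when single libraries were left out, with 4 reached without 4502. In the same order these settings called 1078 of 16787, 573 of 33882, 2007 of 17257, 2223 of 17773 and, without 4502, 4180 of 17716 of all genes. In niacin versus WT control it was 2 with DESeq2 over all 12 libraries and without a filter, 6 with DESeq2 and with edgeR over only the 2 groups, 5 with limma-voom and without 4502 and 4503, and 0 to 3 when single libraries were left out, with 3 reached without 4502. In the same order these settings called 1070 of 14160, 311 of 33882, 5791 of 15329, 5586 of 16501, 7311 of 17257, 5263 of 17773 and, without 4502, 3826 of 17716 of all genes. By the exact permutation test, without adjustment, 1, 2 and 3 genes passed in the 3 comparisons, and 1 to 2, 0 to 2 and 1 to 4 when single libraries were left out. With all libraries a gene passed only where its groups did not overlap, which held for 9.33%, 6.98% and 31.4% of all genes tested.

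Directions turned as follows. In *Mtmr2* KO versus WT control, *Dio2* was 0.11 without 4502 and 4503, *Prdm16* was 0.015 with offsets for length and GC and -0.21 to 0.042 with single libraries left out, and *Cox7a1* was -0.37 to 0.074 with single libraries left out. In niacin versus *Mtmr2* KO, *Ucp1* was -0.038 with limma-voom and -1.63 to 1.06 with single libraries left out, and *Cidea* was -0.30 without 4502 and 4503. The log2 ratio of *Cox8b* to *Ckm* in *Mtmr2* KO versus WT control was -0.42 with *Acta1* as the denominator and -0.78 to 0.46 with single libraries left out, and that of *Cidea* to *Adipoq* in niacin versus *Mtmr2* KO was -0.031 to 2.19. The cause was not tested.

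Over all genes, calls moved from 46 to 683 with DESeq2 over all 12 libraries and 0 with edgeR on only the 2 groups in *Mtmr2* KO versus WT control, from 246 to 2007 with limma-voom and 4180 without 4502 in niacin versus *Mtmr2* KO, where they fell to 0 with edgeR on only the 2 groups, without 4497, 4499, 4500, 4506 or 4507 singly and without 4506 and 4507 together, and to 2 without 4498, and from 0 to 7311 with limma-voom and 5586 with edgeR on only the 2 groups in niacin versus WT control. Leaving out 4506 and 4507, leaving out 4502 and 4503, and the offsets were chosen after seeing the data. No paired analysis was possible because the groups share no replicate numbers. *Ucp1*, *Cidea* and *Elovl3* rest on few counts, so counting error limits them.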
